A study of Enchytraeus crypticus with 60 samples.

Results

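The dispersant of the silver nanomaterial Ag NM300K was tested alone, without silver, on the soil worm *Enchytraeus crypticus*. The arrays described here are those of worms kept in un-spiked LUFA soil (CT) and in LUFA soil spiked with the dispersant (CTdisp), for 3 or 7 days, without food. They were taken by their labels and number 12 of the 60 arrays of the series, 3 per group (CT 3d, CTdisp 3d, CT 7d and CTdisp 7d). The methods call the dispersant Tween 20, and of the liquid that carries Ag NM300K they also name Polyoxyethylene Glycerol Trioleate. No group of the 4 received silver, and the other 48 arrays come from 16 groups in soils spiked with silver, 4 of them with Ag NM300K. Each array held RNA of 1 biological replicate, a pool of 20 whole adult worms with a well-developed clitellum, hybridized in 1 colour. In RNA of whole animals, fewer cells of a type and less RNA per cell cannot be told apart.

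Enchytraeids are small white relatives of the earthworms that feed on decaying matter and microbes in the upper soil, and their gut and skin are in direct contact with pore water. Tween 20 is a non-ionic surfactant, that is, a molecule with a water-loving and an oil-loving end, used to keep particles or oils in suspension. A control with the carrier alone is the usual way to separate the response to a particle from the response to the liquid it is supplied in. In the study, CTdisp was the control of Ag NM300K and CT the control of the other silver materials, so the difference between CTdisp and CT is the distance between the 2 sets of controls.

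Expression is given per gene probe, each a short oligonucleotide designed on an expressed sequence of the worm. The log2 level of a probe is log2 of its background-corrected intensity after SVCD (standard-vector condition-decomposition) normalization. This method first aligns the arrays within each group over all probes. It then aligns the groups only through probes without evidence of variation among them in a statistical test. According to the paper, some genes chosen this way still varied between conditions. A log2 fold change is the mean log2 level in CTdisp minus that in CT, so that 1 is a doubling with dispersant. A probe was called when its limma p-value, adjusted by Benjamini-Hochberg over the 23179 probes tested, kept the false discovery rate (FDR) below 5%. Probes carry the identifiers of assembled contigs or of single sequence reads. The files do not pair them with gene names, so neither genes nor pathways are named, and the labelled material, whole worms, was not checked against tissue markers.

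Before the groups were compared, the arrays were compared with each other. Across probes, the log2 intensities of 2 arrays of 1 group had a Pearson correlation of 0.956 to 0.978 at 3 d and of 0.974 to 0.982 at 7 d. At 3 d, the CTdisp replicate 2 array and the CT replicate 3 array, which share a slide, correlated at 0.985, more closely than any pair of arrays of 1 group at that time. The log2 differences between these 2 arrays had an SD of 0.462 over all probes, against 0.606 to 0.922 for the other 8 pairs of a CTdisp and a CT array. No other slide held a CTdisp and a CT array of the same time. Over the 60 arrays, arrays of 1 slide had a consensus correlation of 0.354 in limma's duplicateCorrelation, but for this pair a shared slide and an exchange of the 2 samples cannot be told apart. An exchange would change every value given for 3 d, so counts without both arrays are given below. At 7 d, the 9 pairs of a CTdisp and a CT array correlated at 0.970 to 0.983, a range that overlapped the pairs within groups. Across times, CTdisp 3d replicate 3 correlated with the CT 7d arrays at 0.971, 0.976 and 0.967. With CTdisp 7d replicates 1 and 2 it correlated at 0.963 and 0.961, and with replicate 3, on the same slide, at 0.9752. With the other CTdisp 3d arrays it correlated at 0.965 and 0.958. Why this array lay so close to arrays of 7 d was not tested. Its omission left the fewest calls at 3 d, given below.

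Arrays also differed in how many probes they detected. At 3 d, 50.8% to 62.1% of the 43750 gene probes were well above background in CT and 53.6% to 60.1% in CTdisp, so that the groups overlapped. At 7 d the shares were 46.0% to 51.0% in CT and 55.8% to 61.8% in CTdisp, and every CTdisp array detected more probes than every CT array. The median local background around the spots was 31.0 to 42.0 intensity units at 3 d and 27.5 to 37.0 at 7 d.

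**Figure D1:**
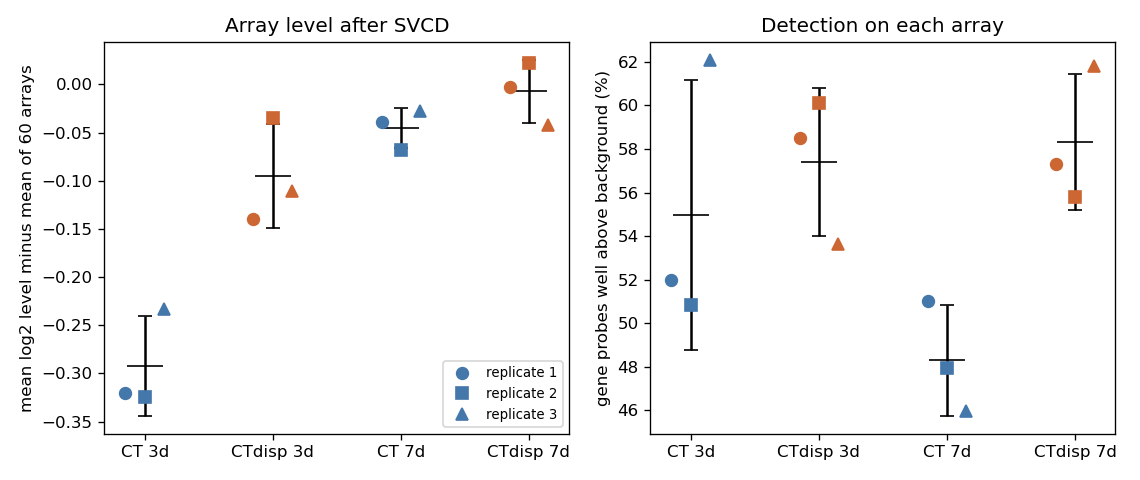
Left, the mean log2 level of each of the 12 arrays over the tested probes, minus the mean of all 60 arrays; right, the share of gene probes (%) well above background on each array. Points are replicates, bars the mean and SD of 3 arrays; after SVCD, which aligns the arrays of a group, the 3 CT 3d arrays lie lowest in level, and the 3 CT 7d arrays lie below the CTdisp 7d arrays in detection.

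At 3 d, after SVCD, expression was higher with the dispersant over a large part of the probes. The mean log2 level of an array, relative to the mean of the 60 arrays, was -0.32, -0.32 and -0.23 in the 3 CT arrays and -0.14, -0.03 and -0.11 in the 3 CTdisp arrays, a difference of the means of 0.20 on the log2 scale. Since the arrays of a group were aligned to each other, their distance from the other group is given without a test. Before normalization the groups overlapped, with mean log2 intensities of 7.11, 6.83 and 6.88 in CT, whose replicate 1 was the highest of the 6 arrays, and 7.08, 7.02 and 6.96 in CTdisp. The difference was then 0.08, with p = 0.5 in a two-sided exact permutation test, where 3 arrays against 3 allow no p below 0.1. Probe by probe, the median log2 fold change was 0.22, with quartiles of -0.04 and 0.45, and 72.1% of the probes were higher with dispersant. These signs depend on the scaling and the processing. Normalizations that set the arrays' medians or distributions equal take this shift out by construction. The median became 0.21 with MedianCD, 0.03 with Median, 0.02 with Quantile normalization and 0.04 with the 75th percentile of each array set equal. Scaling by Agilent spike-in probes does not set medians equal, and it gave 0.06. SVCD itself gave 0.0079 after another background correction (normexp) and 0.08 without the probe filter. It gave 0.12 over the 12 silver-free arrays alone and 0.28 over probes well above background on all 60 arrays.

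limma called 1290 of the 23179 probes at 3 d (5.57%), of which 1264 were higher with dispersant (5.45% of those tested) and 26 lower (0.112%). The probes called higher had a median log2 fold change of 0.87, or 1.83-fold, which is above the median of 0.22 over all probes. The probes called lower were fewer and had a larger median change, -1.46 on the log2 scale or 2.75-fold lower. Their median SD among the arrays of a group at 3 d was 0.60 in CT and 0.78 in CTdisp. For the probes called higher it was 0.26 and 0.29, and with a larger spread the threshold asks for a larger change. Of all calls, 452 were beyond 2-fold, 426 of them higher. In 1139 of the 1264 probes called higher, the lowest CTdisp array was above the highest CT array, where 18% of all tested probes had that order. Of the 26 called lower, 21 had the opposite order, where 1.13% of all tested probes had it. The remaining 130 called probes had overlapping groups. Since the calls were made on the same arrays, these shares were largely set by how the probes were chosen.

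The share of calls that were higher, 98.0%, and the number of calls changed with the scaling. MedianCD, which also aligns the groups through probes without evidence of variation, called 719 probes, 97.1% of them higher. Median normalization called 79 probes, 82.3% of them higher, Quantile normalization 75 with 84.0% higher, and the 75th percentile 88 with 86.4% higher. Spike-in scaling called 2, both higher. The 5 scalings moved the median of all probes by less than the change of most called probes, so that their signs could hardly turn, and none did. The median size of the 1290 changes, 0.88 on the log2 scale, became 0.69 with Median and 0.69 with Quantile normalization.

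**Figure D2:**
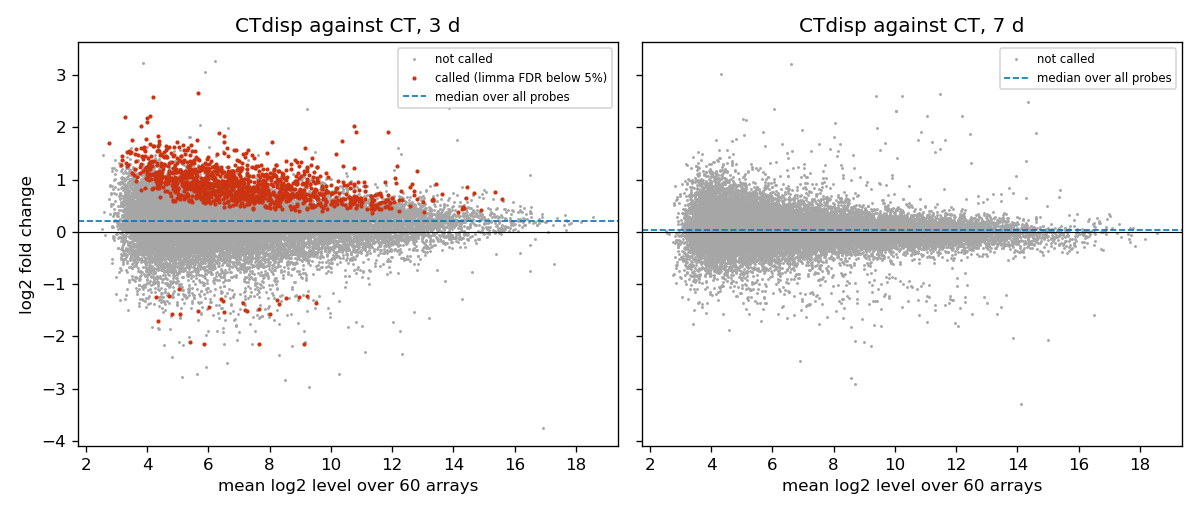
Log2 fold change of CTdisp against CT for each of the 23179 tested probes (vertical) against its mean log2 level over the 60 arrays (horizontal), at 3 d (left) and 7 d (right). Red points are probes called by limma at an FDR below 5%, 1290 at 3 d and 0 at 7 d, and the dashed line is the median over all probes, 0.22 and 0.03.

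Calls at 3 d came from every range of intensity. In the quartiles of the mean log2 level from the dimmest to the brightest, 3.49%, 6.47%, 7.71% and 4.59% of the probes were called, and the median log2 fold change over all probes of the quartile was 0.24, 0.21, 0.21 and 0.20. The share called was thus lowest among the dimmest probes, whose median standard error was 0.40 against 0.20 among the brightest, while the shift itself was of like size in all 4 quartiles. Probes on contigs and on single reads were called at 5.83% and 5.32%, but 8 of 652 called contig probes were lower against 18 of 638 called single-read probes. The median shift over all tested probes was 0.27 for contigs and 0.16 for single reads.

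Most called probes were measured well above background in both soils. On all 6 arrays of the comparison this held for 1115 of the 1290 (86.4%), 1095 of them higher and 20 lower, a share close to the 82.9% of all tested probes. In 48 called probes no CT array was well above background, and in none of the calls was this so for all CTdisp arrays. Of the 48, 30 were well above background on all 3 CTdisp arrays, so that their fold change is a lower bound. As a floor, each CT array was given the dimmest signal it still measured well above background, or the level of the probe itself where higher. The smallest of the 30 bounds was at least 1.26-fold, the median at least 2.07-fold and the largest at least 3.40-fold higher with dispersant. These bounds compare group means after SVCD and make no allowance for noise or scaling. Their direction was set by how the probes were chosen. Over all tested probes, 67 were well above background on every CTdisp array and on no CT array at 3 d, and 6 the other way.

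Among the called probes well above background on all 6 arrays, without an outlier spot and with groups apart, the largest increase was that of CUST_69338_PI427420766_b, on the single read GYUW2K402JRA5H. Its log2 level was 10.91, 10.65 and 10.59 in CT and 11.69, 13.43 and 13.11 in CTdisp. The CTdisp arrays were all higher and lay far apart from each other, with replicate 1 nearest to CT. The log2 fold change was 2.03 ± 0.54 (SE), or 4.09-fold, with an adjusted p of 0.0208. At 7 d the levels were 10.95, 10.67 and 10.33 in CT and 10.45, 9.95 and 10.46 in CTdisp, groups that overlapped, with a log2 fold change of -0.36 ± 0.54 (SE). CUST_42912_PI427420766_b, on the single read GYUW2K401DUU0X, followed the same arrays, and whether the 2 probes measure 1 transcript was not tested. Its log2 level at 3 d was 11.58, 10.52 and 10.61 in CT and 11.63, 13.52 and 13.30 in CTdisp, so that CTdisp replicate 1 was barely above CT replicate 1. The log2 fold change was 1.91 ± 0.44 (SE), or 3.76-fold, with an adjusted p of 0.00953. Without CT replicate 3 the adjusted p was 0.137 for the first and 0.103 for the second of these probes, and without CTdisp replicate 3 it was 0.304 and 0.251, so that both calls were lost. In soils with Ag NM300K at 3 d, which also held dispersant, the first had means of 10.78 (SD 1.02) and 11.04 (SD 0.96) at the lower and higher concentration. The second had 10.80 (SD 1.07) and 11.06 (SD 1.03). The CT means at 3 d were 10.71 and 10.90.

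The largest decrease by the same rule was that of CUST_4369_PI427420766_b, on contig24993. Its log2 level at 3 d was 8.42, 8.75 and 9.65 in CT and 5.51, 8.30 and 6.59 in CTdisp. The arrays of CTdisp spanned a wider range than the distance between the groups' nearest arrays. The log2 fold change was -2.14 ± 0.60 (SE), or 4.42-fold lower, with an adjusted p of 0.0290. At 7 d all 3 CTdisp arrays of this probe, at 8.22, 8.40 and 8.66, lay within or above the CT levels of 7.07, 6.76 and 8.34, and the log2 fold change was 1.03 ± 0.60 (SE). CUST_12924_PI427420766_b, on contig17706, had log2 levels of 9.66, 9.73 and 9.03 in CT and 8.27, 6.22 and 7.52 in CTdisp at 3 d. All CTdisp arrays were below CT, with a log2 fold change of -2.14 ± 0.65 (SE), or 4.40-fold lower, and an adjusted p of 0.0410. Its levels at 7 d were higher in both soils, 10.28, 10.27 and 10.76 in CT and 10.11, 10.999 and 11.35 in CTdisp. The call of the first probe was lost without CT replicate 3 (adjusted p = 0.187), CTdisp replicate 1 (0.217) or CTdisp replicate 3 (0.230). That of the second was lost without CT replicate 1 (0.102), 2 (0.0755) or 3 (0.1002) and without CTdisp replicate 2 (0.133) or 3 (0.213). All 4 calls were also lost under Median, Quantile, 75th percentile and spike-in scaling, with the same directions.

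**Figure D3:**
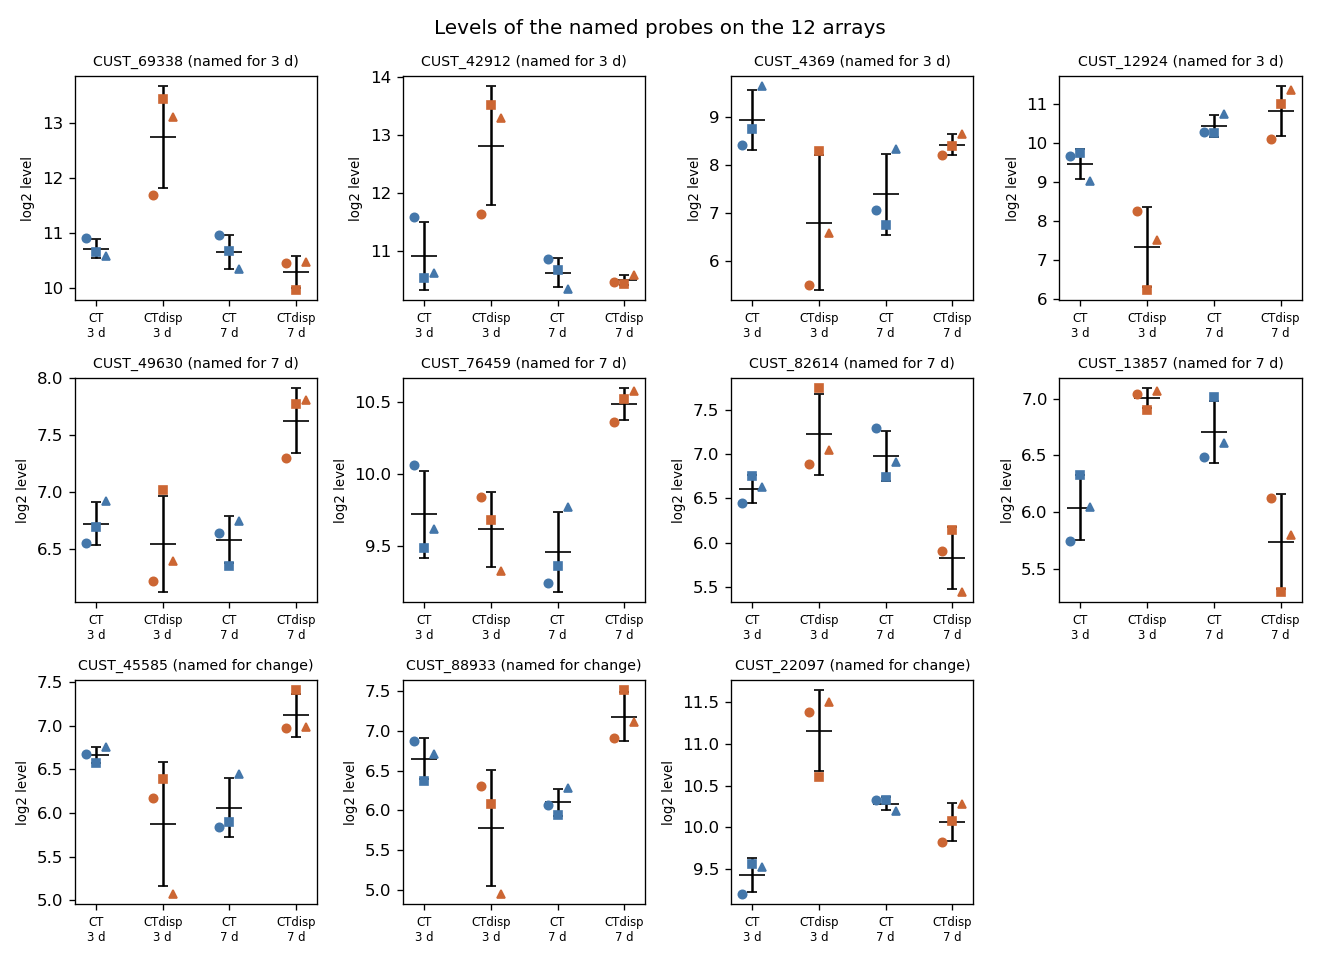
Log2 level of the 11 named probes on each of the 12 arrays, 1 panel per probe, with replicates 1, 2 and 3 as circle, square and triangle, CT in blue and CTdisp in orange, and the mean and SD of 3 arrays in black. The probes named at 3 d stand apart at 3 d and not at 7 d, and CTdisp arrays of 3 d are often far from each other. Probe names are shortened to their number.

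How many probes were called at 3 d rested on single arrays. With CTdisp replicate 3 left out, 47 probes were called, and with CT replicate 3 left out 145, of which 142 were among the 1290. With CTdisp replicate 1 left out the number was 349 (285 among the 1290), and with CT replicate 1 left out 629 (474 among the 1290). It rose to 2879 without CT replicate 2 and to 5946 without CTdisp replicate 2, with 1236 and 1285 among the 1290. The share of calls that were higher stayed between 90.5% and 99.3% in these 6 fits, and the median log2 fold change over all probes ran from 0.07 to 0.38. Of the 1290, 38 were called in all 6 fits, all 38 higher, by 0.91 to 2.66 on the log2 scale with a median of 1.45, and of these, 38 were also called under Median normalization and 2 under all 5 other scalings.

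CTdisp replicate 2, whose omission gave the most calls, was the array on the shared slide. In 896 of the 1264 probes called higher (70.9%), replicate 2 was the CTdisp array nearest to CT. Its median log2 distance to the CT mean over these probes was 0.65, against 0.96 for replicate 1 and 0.99 for replicate 3. In the 26 probes called lower, the median distance was -0.97 for replicate 1, -0.998 for replicate 2 and -2.23 for replicate 3. Over all probes the 3 arrays were alike, at 0.23, 0.22 and 0.23. With both arrays of the shared slide left out, a setting chosen after the data had been seen, 1716 probes were called, 1688 of them higher.

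The difference at 3 d was also measured within batches, by slide and by scan day. All 3 CTdisp arrays of 3 d lay at position 1 of their slides. CT replicates 1, 2 and 3 lay at positions 4, 3 and 2. Soil and position on the slide therefore cannot be told apart at 3 d, also not on the shared slide. On the shared slide, CTdisp replicate 2 was above CT replicate 3 by a median of 0.14 on the log2 scale before normalization, where the 8 other pairs ran from -0.16 to 0.32, below 0 in each of the 3 pairs with CT replicate 1. After SVCD every pair comes near the difference of its groups by construction, and so does the median within a batch. Of the 6 arrays at 3 d, 4 were scanned on 1 day, CT replicates 2 and 3 and CTdisp replicates 1 and 2. Compared alone, also a setting chosen after the data had been seen, they gave 127 calls, 120 of them higher. With slide as a fixed block over the 60 arrays, 1196 probes were called, 1122 of them higher, but only 693 of them were among the 1290. With scan day as a fixed block 990 were called, of which 964 were higher and 897 were among the 1290. The spread used by the test came from all 60 arrays. When limma was fitted on the 6 arrays of 3 d alone it called 0 probes, and so did the methods' t-test after Benjamini-Hochberg adjustment, with 2551 probes at an unadjusted p below 0.05.

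**Figure D4:**
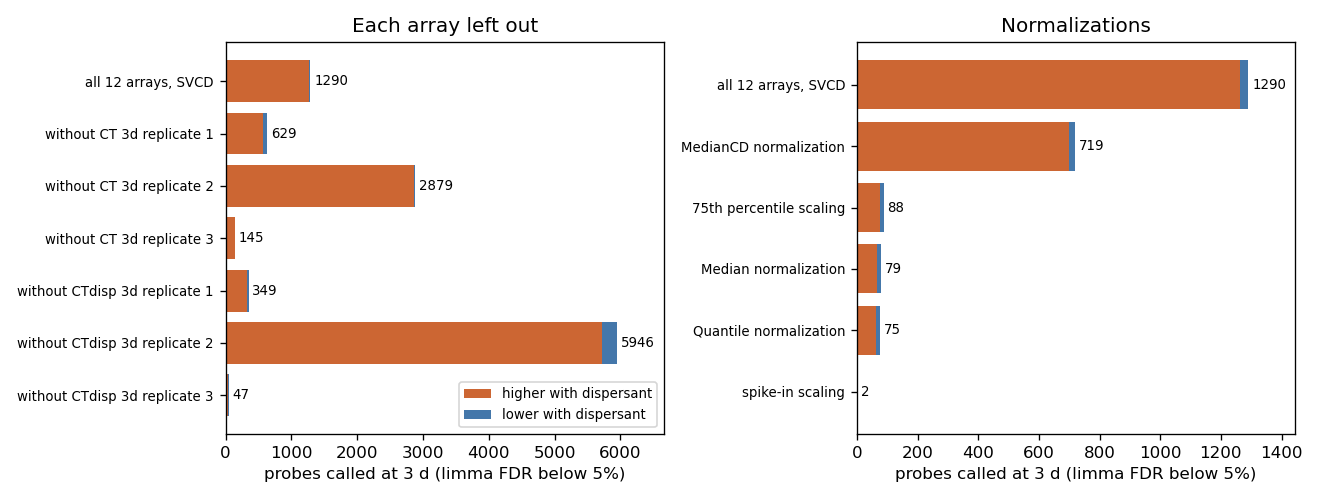
Number of probes called at 3 d (limma, FDR below 5%), higher with dispersant in orange and lower in blue. Left, with each of the 6 arrays of 3 d left out; right, under 6 normalizations. Counts run from 47 without CTdisp replicate 3 to 5946 without CTdisp replicate 2, and from 2 with spike-in scaling to 1290 with SVCD.

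The soils with silver give a frame for the 2 groups of 3 d. Of the 20 groups of the series, CT 3d had the lowest mean log2 level and CTdisp 3d the third lowest. Over the 1264 probes called higher, the CT 3d mean was below the mean of the 48 arrays with silver by a median of 0.77 on the log2 scale (-0.77), which was again the lowest of the 20 groups. CTdisp 3d was at 0.07 against the same 48 arrays and stood 15th from the lowest, and CT 7d and CTdisp 7d were at -0.16 and -0.18. In these probes CT 3d thus lay farther from the 48 arrays than CTdisp 3d. Over all tested probes CT 3d was at -0.32 and CTdisp 3d at -0.10 against the same arrays. The positions therefore include the level that the normalization gives to a group. For the 26 probes called lower both groups were off the 48 arrays, with CT 3d at 0.81 and CTdisp 3d at -0.57. These positions describe probes chosen by the same CT 3d and CTdisp 3d arrays and were not tested.

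Worms in soil with Ag NM300K at 3 d met silver together with its dispersant. Against the CT 3d mean, the 1264 probes called higher with dispersant alone had medians of 0.34, 0.61 and 0.70 on the 3 EC20 arrays and of 0.69, 0.44 and 0.26 on the 3 EC50 arrays, where EC20 and EC50 are the concentrations that lower reproduction by 20% and 50%. All 6 were above the CT mean, and 4 of them were below the lowest CTdisp array, at 0.65. The medians over all tested probes were 0.20, 0.23 and 0.24 at EC20 and 0.16, 0.16 and 0.18 at EC50. These distances share the CT 3d arrays with the comparison that chose the probes. A position above CT 3d was shared by every other group of the series. Against the 48 arrays with silver, the 1264 probes were at -0.21 for Ag NM300K EC20 and -0.30 for EC50. These were ranks 4 and 2 from the lowest of the 20 groups. Silver nitrate at 3 d, without dispersant, was at -0.0059 (EC20) and -0.06 (EC50). Non-coated silver particles at 3 d were at -0.24 (EC20) and 0.27 (EC50), and PVP-coated silver particles at -0.10 and 0.21. The non-coated particles at EC20 had rank 3, between the 2 groups with Ag NM300K, so that a low position was not particular to the soils with Ag NM300K.

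At 7 d, no probe passed the threshold. The mean log2 level of an array relative to the 60 arrays was -0.04, -0.07 and -0.03 in CT and -0.0023, 0.02 and -0.04 in CTdisp, so that the groups overlapped. Before normalization the arrays were at 7.06, 6.69 and 7.25 in CT and 7.17, 7.09 and 7.03 in CTdisp, a difference of the means of 0.10 with p = 0.8 in the two-sided exact permutation test. Probe by probe, the median log2 fold change was 0.03, with quartiles of -0.13 and 0.20, and 54.3% of the probes were higher with dispersant. limma called 0 of 23179 probes (0%), with a lowest adjusted p of 0.594, and 872 probes (3.76%) had an unadjusted p below 0.05, 546 of them higher. The methods' t-test also called 0 after adjustment, with 1040 at an unadjusted p below 0.05. The 3 CTdisp arrays were all above the 3 CT arrays in 1255 probes (5.41%) and all below them in 853 (3.68%), where the shares at 3 d had been 18% and 1.13%.

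Because the fit pools the spread over the 60 arrays, the median standard error was 0.29 on the log2 scale at both times. The median SD of a probe among the 3 arrays of a group was 0.31 in CT and 0.35 in CTdisp at 3 d, and 0.25 and 0.26 at 7 d. For 16207 probes (69.9%), the 95% confidence interval of the change at 7 d lay within a 2-fold change in either direction. In 4 probes it lay wholly beyond 2-fold, although none of them passed the adjusted threshold. The median half-width of this unadjusted interval was 0.58 on the log2 scale, which is no detection limit, since the adjusted threshold asks for larger changes. Left-out arrays changed the count from 0 to 25 without CT replicate 2 and to 3 without CT replicate 1, all of them higher, and left it at 0 in the other 4 fits.

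Low intensities behaved differently from high ones at 7 d. Over the dimmest quartile of tested probes the median log2 fold change was 0.09, and it fell through 0.05 and 0.02 to -0.01 in the brightest. In all, 454 tested probes were well above background on every CTdisp array and on no CT array, and none the other way, where 67 and 6 had been found at 3 d. Of the 454, 453 belonged to the dimmest quartile, and their median log2 fold change was 0.52, a direction set by how they were chosen, while none was called. The part of detection in the shift of dim probes was not tested. When all 43750 gene probes were tested without a filter on dim probes, the median log2 fold change at 7 d became 0.19 and 1 probe was called, lower with dispersant. All CT arrays of 7 d were scanned on 1 day and the CTdisp arrays on 3 days. On that 1 day, the 3 CT arrays and CTdisp replicate 1 gave a median of 0.03 and 4 calls, in a fit where the lone CTdisp array is assumed to vary like the other groups, a setting chosen after the data had been seen.

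The probes with the lowest unadjusted p and with groups apart at 7 d are given as examples that did not pass. CUST_49630_PI427420766_b, on the single read GYUW2K402JDLMT, had log2 levels of 6.64, 6.35 and 6.75 in CT and 7.30, 7.77 and 7.80 in CTdisp, a log2 fold change of 1.045 ± 0.243 (SE) with an adjusted p of 0.594. CUST_76459_PI427420766_b, on the single read GYUW2K401B58EA, had 9.24, 9.36 and 9.77 in CT and 10.36, 10.52 and 10.58 in CTdisp, a log2 fold change of 1.03 ± 0.25 (SE). In both, the 3 CTdisp arrays of 7 d were the highest of the 12 arrays, and at 3 d the log2 fold changes were -0.18 and -0.10. In the other direction, CUST_82614_PI427420766_b, on the single read GYUW2K401BZ8NJ, had 7.29, 6.74 and 6.91 in CT and 5.90, 6.14 and 5.44 in CTdisp, a log2 fold change of -1.15 ± 0.26 (SE). CUST_13857_PI427420766_b, on contig16912, had 6.49, 7.02 and 6.61 in CT and 6.13, 5.29 and 5.80 in CTdisp, a log2 fold change of -0.96 ± 0.23 (SE). The adjusted p of each of these was 0.594 as well.

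Over the 1264 probes called higher at 3 d, the median log2 fold change went from 0.87 at 3 d to -0.03 at 7 d, with quartiles of -0.17 and 0.11, and 566 of them (44.8%) were positive at 7 d, where 54.3% of all tested probes were. These probes were chosen on their values at 3 d, and 55 of them passed the test of a change between the times given below. At an unadjusted p below 0.05, 20 were higher and 29 lower at 7 d. Of the 26 probes called lower at 3 d, 23 were positive at 7 d, with a median of 0.28. Across all 23179 probes, which are not independent replicates, the log2 fold changes at the 2 times had a Pearson correlation of -0.08 and a Spearman correlation of -0.06. The comparisons share no array with each other.

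The change of the dispersant effect from 3 to 7 d was tested directly, as the log2 fold change at 7 d minus that at 3 d. Its median over all probes was -0.19. The order of the 2 times over all probes changed with the processing. With spike-in scaling the median log2 fold change was 0.06 at 3 d and 0.11 at 7 d, and without a filter it was 0.08 and 0.19. Before normalization, the means of CTdisp and CT differed by 0.08 at 3 d and 0.10 at 7 d. limma called 60 of 23179 probes (0.259%), of which 57 (0.246%) fell and 3 (0.0129%) rose. Of the 60, 55 had been called higher at 3 d and 1 lower, and in 56 the fold changes of the 2 times had opposite signs. The median change of the 57 that fell was -1.42 on the log2 scale, from a median of 1.07 at 3 d to -0.33 at 7 d. Most of the probes called at 3 d therefore did not pass the test of a difference between times, whose median standard error of 0.41 was larger than that of either time alone.

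CUST_22097_PI427420766_b, on contig03220, had the clearest fall together with CUST_13857_PI427420766_b. Its log2 level at 3 d was 9.20, 9.56 and 9.53 in CT and 11.38, 10.60 and 11.50 in CTdisp, a log2 fold change of 1.73 ± 0.24 (SE), or 3.32-fold, with an adjusted p of 2.77e-05. At 7 d it was 10.32, 10.33 and 10.19 in CT and 9.82, 10.08 and 10.27 in CTdisp, and the log2 fold change was -0.22 ± 0.24 (SE). The change was -1.95 ± 0.34 (SE) with an adjusted p of 0.00717. Between the times, the CT level was higher at 7 d than at 3 d and the CTdisp level lower. CUST_13857_PI427420766_b was at 5.75, 6.33 and 6.04 in CT and at 7.04, 6.90 and 7.06 in CTdisp at 3 d, a log2 fold change of 0.96 ± 0.23 (SE) that was called with an adjusted p of 0.0121. Since its CTdisp arrays were the lower ones at 7 d, its change was -1.93 ± 0.33 (SE), also with an adjusted p of 0.00717.

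CUST_45585_PI427420766_b and CUST_88933_PI427420766_b, on the single reads GYUW2K402HHYPZ and GYUW2K402IG25Z, rose instead. The first had log2 levels of 6.67, 6.58 and 6.76 in CT and 6.17, 6.39 and 5.07 in CTdisp at 3 d, and of 5.84, 5.90 and 6.45 in CT and 6.97, 7.41 and 6.98 in CTdisp at 7 d. The groups did not overlap at either time and were in the opposite order. Its change was 1.85 ± 0.43 (SE) with an adjusted p of 0.0450. The second had a change of 1.94 ± 0.45 (SE) with an adjusted p of 0.0463 and levels close to those of the first on most arrays. Neither probe was called at 3 d or at 7 d alone.

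The calls of the change rested on single arrays as well. Without CT 3d replicate 3, without CTdisp 3d replicate 3 or without CT 7d replicate 2 no probe was called, while 2021 were called without CTdisp 3d replicate 2. The other 8 fits gave 1 to 484 calls, with 1 without CTdisp 7d replicate 1 and 2 without CTdisp 7d replicate 2. Further counts were 15 without CT 3d replicate 1, 484 without CT 3d replicate 2, 18 without CTdisp 3d replicate 1, 28 without CT 7d replicate 1, 416 without CT 7d replicate 3 and 258 without CTdisp 7d replicate 3. Under Median, Quantile and spike-in scaling 0 probes were called. The 4 probes named for the change kept their direction in each of 30 alternative settings. The 2 that rose were called in 11 of these and the 2 that fell in 19.

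**Figure D5:**
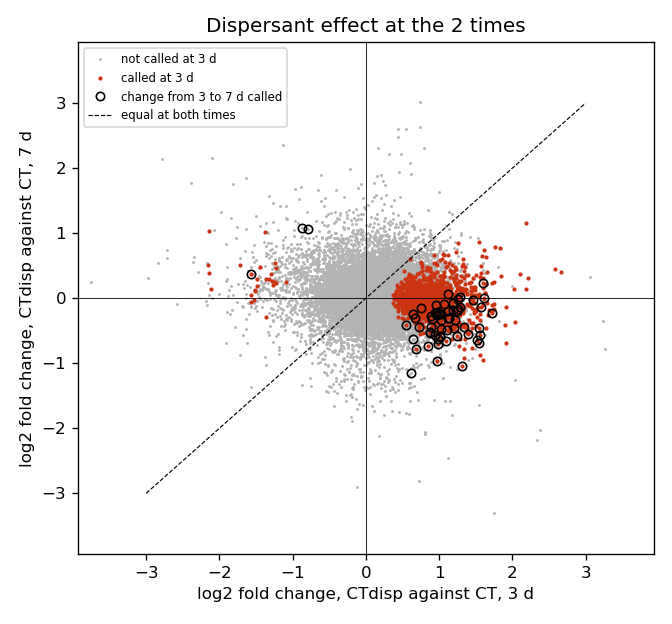
Log2 fold change of CTdisp against CT at 7 d (vertical) against that at 3 d (horizontal) for each of the 23179 tested probes, with the 1290 probes called at 3 d in red and the 60 probes whose change between times was called circled. The red points to the right spread around 0 at 7 d, with a median of -0.03, and lie far from the dashed line of equal change.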

How the data were processed

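The authors quantified the arrays (custom Agilent design, 4 arrays a slide) with Agilent Feature Extraction 10.7.3.1 and deposited, per spot, a background-corrected intensity (processed signal) with flags. The series matrix they deposited repeats it, rounded. Of 45167 spots, 1417 were controls. The filter (positive and significant on all 60 arrays) left 23179 of 43750 gene probes (53.0%). Outlier spots (308) were set missing, and no spot was saturated. Log2 intensity was normalized by SVCD over 60 arrays, rewritten after the methods, with 6587 probes without evidence of variation. limma 3.58.1 in R 4.3.3 fitted a mean per group over 20 groups and tested the 3 d, 7 d and change contrasts, with Benjamini-Hochberg adjustment. Scripts were tested on simulated data. Probes were named by rule: the 2 largest called changes per direction or, with fewer called and for the change, the lowest p, among probes well above background on every array compared, without outlier spots and (single times) with groups apart. The members and lists were chosen with earlier results of these data known. Pathway and marker lists were not used here, since the files pair no probe with a gene name. Replicates are separate pools of worms. Arrays number 3 per group, which limits the precision.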

Additional observations from a re-analysis of the deposited data

Results flagged for a closer look

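The effect of the dispersant differed between 3 and 7 d by limma's test of the difference, which called 60 probes. This count became 5 with MedianCD and 0 with Median, Quantile and spike-in scaling, with normexp and in fits of the 12 silver-free arrays or of the compared groups alone. Of the named probes, 5 passed it. The log2 change from 3 to 7 d was -1.76 for CUST_82614_PI427420766_b, -1.93 for CUST_13857_PI427420766_b and -1.95 for CUST_22097_PI427420766_b. It was 1.85 for CUST_45585_PI427420766_b and 1.94 for CUST_88933_PI427420766_b. The adjusted p was 0.0232, 0.00717, 0.00717, 0.0450 and 0.0463 in that order. For the pair that rose, the call was lost without CTdisp 3d replicate 3, with an adjusted p of 0.296 and 0.299, and the same happened for CUST_13857_PI427420766_b (0.127) and CUST_22097_PI427420766_b (0.152). It was lost for these 4 without CT 3d replicate 3 (0.125, 0.125, 0.0656 and 0.0656) and without CT 7d replicate 2 (0.170, 0.170, 0.0673 and 0.0673) too.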

How the results depend on the processing

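No named probe reversed under any alternative, but these probes were chosen for large changes, which most settings move by less than their size. The normexp alternative used the median spot intensity. The cause of each move below was not tested, beyond what the construction of a setting shows.

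Calls at 3 d (1290) became 719 with MedianCD, 79 with Median, 75 with Quantile, 88 with 75th percentile and 2 with spike-in scaling, 7 with normexp, 75 without a filter, 2961 with probes well above background on all 60 arrays, 1955 with slide as a random block, and 0 in 3 settings, over the 12 silver-free arrays alone, over the compared groups alone and with the methods' t-test. The arrays of scan day 3 alone gave 127. Leaving out 1 array gave 47 to 5946. Calls at 7 d (0) became 1 without a filter, 4 on scan day 1 alone and 0 to 25 with 1 array left out. Calls of the change (60) became 5 with MedianCD, 0 with Median, Quantile and spike-in scaling, normexp, the 12 arrays alone and the compared groups alone, 3 with the 75th percentile, 25 with the filter on 12 arrays, 1 without a filter, 355 with well above background on all arrays, 26 and 398 with slide as a fixed and a random block, 236 without the shared slide, and 0 to 2021 with 1 array left out. The methods' t-test has no form for the change.

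The percent of calls higher at 3 d (98.0%) became 82.3% with Median, 84.0% with Quantile, 86.4% with the 75th percentile, 100% with spike-ins, 85.7% with normexp, 93.3% without a filter, 99.1% with well above background on all arrays, 93.8% and 96.2% with slide as a fixed and random block, 94.5% on scan day 3 and 90.5% to 99.3% with 1 array left out. The median log2 fold change at 3 d (0.22) became 0.0275, 0.0234, 0.0442 and 0.0645 with Median, Quantile, 75th percentile and spike-in scaling, 0.0079 with normexp, 0.0835 without a filter, 0.28 with well above background on all arrays, 0.12 over the 12 arrays, 0.29 without the shared slide and 0.0705 to 0.38 with 1 array left out. At 7 d (0.03) it became 0.0767 with MedianCD, -0.0134 with Median, 0.11 with spike-ins, -0.0268 with normexp, 0.19 without a filter, -0.0053 over the 12 arrays and -0.0718 to 0.10 with 1 array left out.

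With the replicate block, 1292, 0 and 72 probes were called at 3 d, at 7 d and for the change. The numbers do not pair the samples: deviations of same-numbered arrays correlated at 0.26, -0.16 and -0.44 at 3 d and at -0.28, -0.29 and -0.14 at 7 d, and not every array correlated best with its own number. The deviations of CTdisp replicate 2 and CT replicate 3 of 3 d, on the shared slide, correlated at 0.53. Near background a fold change is only a bound.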
